A study of Arabidopsis thaliana and Ginkgo biloba and Brassica rapa with 13 samples.

Results

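Nannochloropsis oculata is a single-celled marine alga of the stramenopiles, whose chloroplast goes back to a red alga taken up by another eukaryote. It therefore stands outside the green lineage to which the other species of the series belong. The data for N. oculata were 1 of 8 RNA bisulfite sequencing (RBS-seq) libraries, among 13 samples in all, together with its rRNA reference sequences. It was chosen by species. All 16 listed rRNA positions were taken, each of which was called in at least 1 species. Of these positions, 11 carried a percentage in N. oculata.

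N. oculata was sampled as wild type cells cultured to log phase. The green species, also wild type, were Arabidopsis thaliana (10-day-old seedlings), its relative Brassica rapa, the wheat Triticum durum (flag leaf), the green alga Caulerpa taxifolia (fronds) and the gymnosperm Ginkgo biloba. For B. rapa and G. biloba the labels name leaf and the methods of the study name shoot apex. Total RNA was used throughout. The A. thaliana value is the authors' mean of 3 libraries and every other species had 1 library, so that no replicate error could be attached to a value, and species and sampled material cannot be told apart. The study required a minimum read coverage per site and lists reads per library, but the number of reads behind each percentage is unknown here. No gene expression values were used, so the labelled tissues could not be checked against marker genes.

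Bisulfite turns cytosine into uracil unless it carries a 5-methyl group, so a cytosine that persists in the reads marks a candidate 5-methylcytosine (m5C). In rRNA the mark is set by methyltransferases of the NOP2/NSUN family and their bacterial relatives. In Arabidopsis, NSUN5 methylates C2268 of the nuclear 25S rRNA, and in yeast the related enzymes Rcm1 and Nop2 each methylate a cytosine of the 25S rRNA. In Escherichia coli, RsmB and RsmF act on 16S rRNA and RlmI on 23S rRNA. Chloroplast and mitochondrial ribosomes descend from those of bacteria, and each of the 3 genomes of an alga or plant cell encodes its own large (LSU) and small (SSU) subunit rRNA.

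Sites are numbered by the Arabidopsis reference of each rRNA, from 1 at the 5′ end, and a site was counted as called at 20% or more unconverted cytosine. The Arabidopsis sequences around the sites that were called in N. oculata and in all green species are shown first, because they carry the shared part of the pattern. Each spans 41 bases, 5′ to 3′, with the methylated cytosine in capitals.
nuclear 25S C2268: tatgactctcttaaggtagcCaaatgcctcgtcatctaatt
nuclear 25S C2860: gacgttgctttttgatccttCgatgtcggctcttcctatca
chloroplast 16S C916: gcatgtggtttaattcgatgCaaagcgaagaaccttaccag
chloroplast 23S C1940: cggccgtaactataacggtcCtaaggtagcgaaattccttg
chloroplast 23S C1977: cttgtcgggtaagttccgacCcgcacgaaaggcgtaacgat
mitochondrial 26S C1586: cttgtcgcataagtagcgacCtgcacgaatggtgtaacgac

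The N. oculata reference was identical to Arabidopsis over all 41 bases at C2268, C1940 and C1977. It differed by 1 base at C2860, by 2 at C916 and by 5 at C1586. The single change near C2860 was C2856T, given as the Arabidopsis base, its position and the N. oculata base. The changes near C916 were C897G and A919C.

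In N. oculata 9 of the 16 positions were called. Of these, 6 were also called in all 5 green species, 1 (mitochondrial C1549) was shared with T. durum and C. taxifolia alone, and 2 (mitochondrial C1566 and chloroplast C1887) were called in no green species. In the other direction, mitochondrial C960 was called in all 5 green species and had no cytosine in N. oculata. By genome of origin, the called N. oculata sites were 2 of 8 listed nuclear positions, 4 of 4 chloroplast positions and 3 of 4 mitochondrial positions. No green species had more than 3 called mitochondrial sites or more than 3 called chloroplast sites.

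The sets can be compared species by species. N. oculata and C. taxifolia shared 7 called sites, which are 77.8% of the N. oculata sites and 87.5% of those of C. taxifolia. T. durum also shared 7, which are 50% of its 14. Of these 14, 6 lie in a nuclear 18S cluster described below, for which the paper raises incomplete conversion. A. thaliana, B. rapa and G. biloba each shared 6, or 66.7% of the N. oculata sites and 85.7% of their own.

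**Figure D1:**
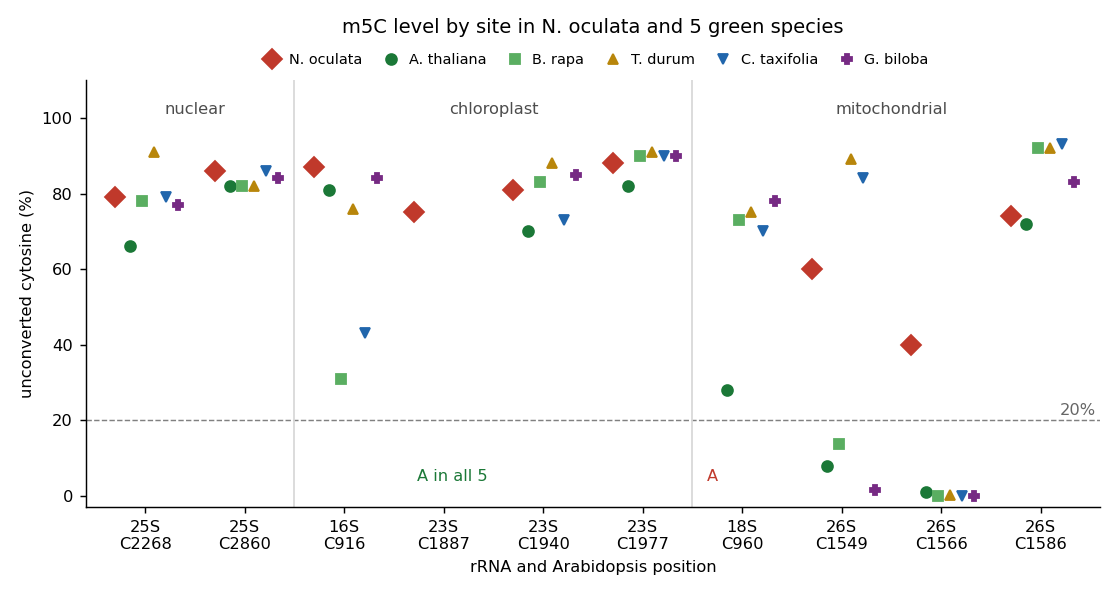
Percentage of unconverted cytosine (y axis) at the positions called in N. oculata and at mitochondrial C960, with 1 point per species (A. thaliana is the authors' mean of 3 libraries) and letters where a base other than cytosine is listed. N. oculata lies at 75% to 88% at its nuclear and chloroplast sites and at 40% to 74% at its mitochondrial sites, and it is alone above the dashed 20% line at C1887 and C1566.

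Nuclear 25S rRNA, the RNA of the cytosolic large subunit, carried both nuclear sites of N. oculata. C2268 was 79% in N. oculata. In the green species it was 79% in C. taxifolia, 78% in B. rapa, 77% in G. biloba, 91% in T. durum and 66% in A. thaliana. C2860 was 86% in N. oculata, and in the green species 86% in C. taxifolia, 84% in G. biloba and 82% in each of the remaining 3. At both sites N. oculata lay within the range of the green species and equalled the other alga. In its own 25S reference of 3306 bases these cytosines stand at positions 2208 and 2798. The Arabidopsis cytosines lie on chromosome 2 of TAIR10.1 at 8412 and 9004 and, in another copy, on chromosome 3 at 14202383 and 14202975, all on the plus strand, where no rRNA gene is annotated.

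Chloroplast rRNA held the other sites that N. oculata shared with every green species, apart from 1 mitochondrial site. C916 of the 16S rRNA was 87% in N. oculata, with G. biloba next at 84%, A. thaliana at 81%, T. durum at 76%, C. taxifolia at 43% and B. rapa at 31%. N. oculata had the highest value of the 6 species there, 3 percentage points above G. biloba, and the green species differed among themselves far more than that. The B. rapa 16S reference has 1476 bases, against 1491 in A. thaliana, and departs from it in the bases just before this site. The B. rapa value carries this limit, whose effect was not tested. Without B. rapa the green values still ran from 43% to 84%. C1940 of the 23S rRNA was 81% in N. oculata, with 3 green species above it (T. durum at 88%, G. biloba at 85%, B. rapa at 83%) and C. taxifolia at 73% and A. thaliana at 70% below it. C1977 was 88% in N. oculata, with T. durum at 91%, B. rapa, C. taxifolia and G. biloba at 90%, and A. thaliana alone lower, at 82%. These rRNAs come from a chloroplast of red algal descent in N. oculata and from green chloroplasts in the other species. The N. oculata positions are 939 in its 16S reference of 1489 bases, and 1963 and 2000 in its 23S reference of 2950 bases.

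Levels were next summarised over the 6 sites called in all species. The N. oculata median was 83.5%, and the green medians were 89.5% (T. durum), 84.0% (G. biloba), 82.5% (B. rapa and C. taxifolia) and 76.5% (A. thaliana). The difference from the mean of the green medians, 83%, was 0.5 percentage points (exact permutation of the species labels, two-sided p = 1.0). With 1 species against 5 the smallest p that this test allows is 0.167, and the sites are those called in every species, so the test cannot show whether N. oculata differs and the medians are a description. The mean absolute difference over the 6 sites was smallest to G. biloba, at 3.67 percentage points, and reached 13.8 to B. rapa. Most of the latter came from C916, at 87% in N. oculata and 31% in B. rapa, with the reference limit given above. Between pairs of green species it ran from 4.67 to 17.2, with a median of 11.1 over 10 pairs. N. oculata was higher than A. thaliana at 6 of 6 sites, and higher than G. biloba at 3 and lower at 3.

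The mitochondrial sites of N. oculata were lower than its other sites. Its 3 called mitochondrial sites were at 40% to 74%, and all 3 lay below the lowest of its 6 nuclear and chloroplast sites, which ran from 75% to 88%. In the green species 0 or 1 called mitochondrial sites lay below all the others. The 1 was C960 in A. thaliana, at 28%.

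C1586 was the mitochondrial site called in every species. It was 74% in N. oculata, with C. taxifolia at 93%, B. rapa and T. durum at 92%, G. biloba at 83% and A. thaliana at 72%. N. oculata thus stood next to the lowest value, 18 percentage points below the green median of 92%. C1549 was 60% in N. oculata, with T. durum at 89% and C. taxifolia at 84% above it, and B. rapa at 13.8%, A. thaliana at 8% and G. biloba at 1.63% below it. The N. oculata value fell in the gap between the 3 land plants with low levels and the remaining pair of green species. In T. durum the mitochondrial and chloroplast references are identical over a run of 178 bases that covers C1549 and C1586. Its mitochondrial values at both sites carry this limit. Without T. durum, C. taxifolia alone shares the C1549 call with N. oculata, and the difference from the green median at C1586 was -13.5 points.

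C1566, between these sites, was called in N. oculata alone. Its level was 40% there, and in the green species 1% (A. thaliana), 0.126% (T. durum), 0.0683% (C. taxifolia) and 0% (B. rapa and G. biloba). All 6 references hold a cytosine at this position. It was the lowest called level of N. oculata, and the highest green value was 1%. The site was listed because a species was called there, so the gap is a description and was not tested. In TAIR10.1 the Arabidopsis cytosine lies at 141713 of the mitochondrial genome, minus strand, inside the 26S rRNA gene (140797 to 143965), between C1549 at 141730 and C1586 at 141693.

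The 3 mitochondrial sites lie within the stretch shown here from Arabidopsis (26S positions 1539 to 1596), in which capitals mark the 8 of 58 bases that differ in N. oculata. The chloroplast stretch that aligns with it (23S positions 1930 to 1987) holds C1940 and C1977 and had 0 differences between Arabidopsis and N. oculata.
mitochondrial 26S: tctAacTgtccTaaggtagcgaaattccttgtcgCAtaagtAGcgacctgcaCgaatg
chloroplast 23S: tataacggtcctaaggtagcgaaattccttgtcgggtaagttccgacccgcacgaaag

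The N. oculata cytosines of these mitochondrial sites are at positions 1319, 1336 and 1356 of its reference of 2237 bases. The base directly 3′ of C1549 changed (T1550A), and all 5 green references hold T there. Between C1566 and C1586 the changes were C1573G, A1574G, A1580T and G1581C, which leave the N. oculata mitochondrial stretch identical to its own chloroplast stretch at these 4 positions.

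The aligned organellar positions permit a comparison of both LSU rRNAs within a species. Mitochondrial C1549 aligned with chloroplast C1940, C1566 with position 1957 and C1586 with C1977, in 18 of 18 combinations of site and species. These combinations are not all independent, since B. rapa and G. biloba have the same LSU references. In N. oculata the first pair was 81% in the chloroplast and 60% in the mitochondrion, a difference of 21.0 percentage points. Among the green species the same difference was 83.4 in G. biloba, 69.2 in B. rapa, 62.0 in A. thaliana, -1.0 in T. durum and -11.0 in C. taxifolia. N. oculata therefore lay between the 3 land plants with a large gap and the other green species, since T. durum had nearly equal levels and C. taxifolia the higher level in the mitochondrion. For C1977 and C1586 the difference was 14.0 points in N. oculata, followed by 10.0 in A. thaliana, 7.0 in G. biloba, -1.0 in T. durum, -2.0 in B. rapa and -3.0 in C. taxifolia. This was the largest gap of the 6 species at that pair, 4 points above that of A. thaliana. The chloroplast partner of C1566 is a cytosine in N. oculata too (its position 1980). It is not among the 3 sites stated for this rRNA in N. oculata, so it was not called there. It had no deposited percentage, and whether its level or its coverage fell short is unknown.

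Mitochondrial and chloroplast references resembled each other around these sites, which bears on where a bisulfite read can be placed. The exact run shared by both N. oculata references was 7 bases through C1549 and 36 bases through C1566 and C1586, and for C1566 and C1586 it was 44 bases once every cytosine was turned into thymine. In A. thaliana the runs were 27 bases through C1549 and C1566 and 5 bases through C1586. Over 61 bases, identity between the organellar references of N. oculata was 90.2% around C1549 and C1566 and 86.9% around C1586. In T. durum it was 100% at all 3. The part of this resemblance in the N. oculata mitochondrial percentages was not tested.

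**Figure D2:**
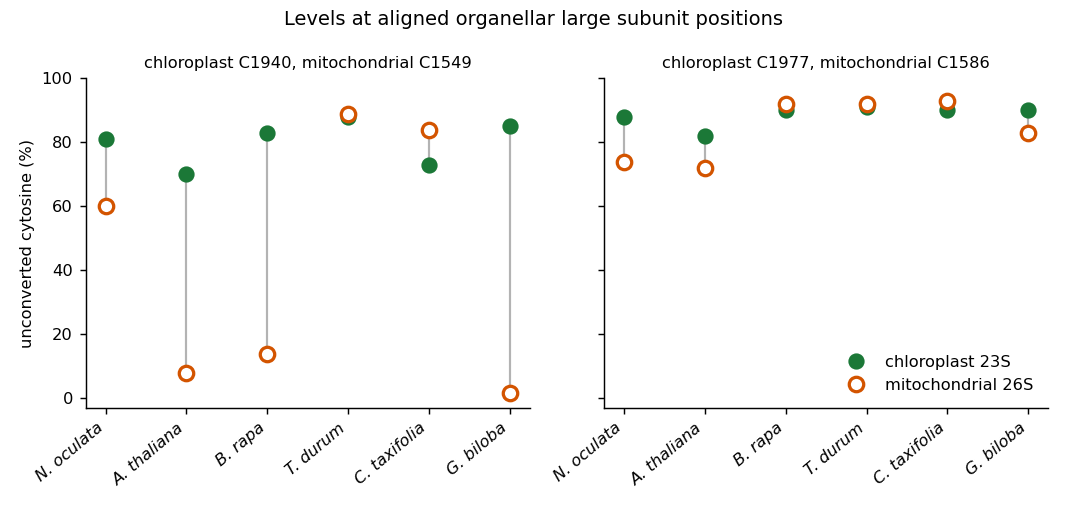
Percentage of unconverted cytosine (y axis) in chloroplast 23S rRNA (filled) and mitochondrial 26S rRNA (open) at aligned positions, with a line joining both values of a species. N. oculata differs by 21.0 points at the pair on the left and by 14.0 at the pair on the right, where it has the largest gap of the 6 species.

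A motif shared by the LSU rRNAs places the nuclear and organellar sites relative to each other. The letters AAGGTAGC, searched on the rRNA strand, occurred in 18 of 18 LSU references and in 9 of 17 SSU references. The B. rapa and G. biloba references are identical in nuclear 18S and in every LSU rRNA, so these counts and those over species include copies. In all 6 species nuclear C2268 was the base directly after the motif, whereas organellar rRNAs held G there. In all 6 species chloroplast C1940 and mitochondrial C1549 lay 2 bases before the motif, and nuclear 25S rRNA held T at that place. The base between site and motif was T in every organellar reference except the N. oculata mitochondrial one, which held A. In N. oculata the motif starts at 2200 in the 25S, 1965 in the chloroplast 23S and 1321 in the mitochondrial 23S reference.

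C1887 of chloroplast 23S rRNA was the other site called in N. oculata alone, at 75%. All 5 green species are listed with A, so none has a percentage to set against it. In Arabidopsis the position lies at 106577 on the plus strand of the chloroplast genome of TAIR10.1 and at 132072 on the minus strand, inside both copies of the 23S rRNA gene. The Arabidopsis window, with the listed position in capitals, shows a stretch that differs between the lineages.
chloroplast 23S position 1887: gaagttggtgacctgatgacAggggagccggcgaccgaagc

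Of these 41 bases, 22 were identical in N. oculata, 15 differed and 4 had no counterpart, whereas the windows of C1940 and C1977 had 0 differences. The N. oculata reference base aligned with the position was itself A, at its position 1910 by multiple alignment and 1913 by pairwise alignment. A cytosine stood at 1912, which is 2 bases downstream of the first and 1 base upstream of the second. The deposited files do not say which cytosine of the N. oculata reference the 75% belongs to, and its place is therefore uncertain by a few bases.

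C960 of mitochondrial 18S rRNA was the site that N. oculata lacked. The table gives N. oculata an A, while the green species were at 78% (G. biloba), 75% (T. durum), 73% (B. rapa), 70% (C. taxifolia) and 28% (A. thaliana). It was the only site called in all 5 green species that was not called in N. oculata. The N. oculata reference of this rRNA was not used here, so the listed base was not compared with a sequence. The Arabidopsis cytosine lies at 127264 of the mitochondrial genome, minus strand, in the 18S rRNA gene, within this sequence.
mitochondrial 18S C960: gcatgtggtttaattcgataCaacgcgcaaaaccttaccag

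The nuclear 18S rRNA, the RNA of the cytosolic small subunit, had no called site in N. oculata. The 6 listed positions are those of a cluster in T. durum, where each was at 52% or 53%. For the adjacent ones the paper proposes that bisulfite may have failed to convert cytosines in a strongly structured part of the rRNA. In N. oculata C1713 was at 0.0473% and C1717 at 0.0517%, the lowest levels at these positions among the species with a percentage. C1714 and C1715 were listed as G and C1716 as T, and C1703 was not determined. In the other 4 green species 12 percentages ran from 0.105% to 3.30%. The T. durum sequence is shown with its 6 called cytosines in capitals.
nuclear 18S, T. durum: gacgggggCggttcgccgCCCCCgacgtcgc

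The N. oculata reference had no counterpart for 10 of the 31 Arabidopsis bases from 1695 to 1725. The 5 bases listed for N. oculata at C1713 to C1717 occurred in that order once in its 18S reference, from 1670 to 1674. The multiple alignment instead set the cytosine at 1670 against position 1703, so the assignment of these bases to Arabidopsis positions depends on where the gap is placed.

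The levels were then set beside the divergence of the references. Of the N. oculata block 8 references were used here. Of these, 5 were LSU or SSU rRNAs with 2331 cytosines, and the 9 called sites are 0.386% of these cytosines. The mitochondrial SSU rRNA, whose N. oculata reference was left out here, is in neither count. The 3 small references, listed as nuclear 5.8S, nuclear 5S and chloroplast 5S, had 100 cytosines and no called site. The nuclear 5S line differed from the 5.8S line at 1 of 162 positions, so its 38 cytosines largely repeat those of the 5.8S line. Whether a separate nuclear 5S rRNA carries a site cannot be read from it. The organellar references of N. oculata came from databases, and its nuclear ones were built by the authors from RNA-seq reads guided by Arabidopsis.

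In every rRNA N. oculata was on average less identical to the green species than these were to each other, most of all in the mitochondrion. Identity to the green references averaged 77.7% in nuclear 25S, 81.5% in nuclear 18S, 76.1% in chloroplast 23S, 78.0% in chloroplast 16S and 59.1% in mitochondrial 26S. Between green species the averages were 84.8%, 87.8%, 88.9%, 91.4% and 82.5% in that order. The difference averaged -12.6 percentage points over the 5 rRNAs, and was -6.32 in nuclear 18S and -23.4 in mitochondrial 26S. The distance of each alga from the 4 land plants can be set side by side. N. oculata averaged 78.9% in nuclear 25S and 83.6% in nuclear 18S, against 76.0% and 77.1% in C. taxifolia. In chloroplast rRNA N. oculata was at 75.7% (23S) and 78.5% (16S), against 79.0% and 83% in C. taxifolia. In mitochondrial 26S it averaged 58.7%, against 75.1% in C. taxifolia. By these references N. oculata was nearer to the land plants than the green alga in nuclear rRNA and farther from them in organellar rRNA. Its nuclear references were guided by Arabidopsis and its organellar ones came from databases, so genome and construction cannot be told apart. In nuclear 25S it was 81.4% identical to A. thaliana, against 77.7% to 78.3% for the other land plants. For C. taxifolia these values were 79.9% and 74.5% to 74.7%. In nuclear 18S N. oculata was at 83.5%, against 83.1% to 83.8%. The B. rapa and G. biloba lines were identical in 4 of these 5 rRNAs, and both species count in the averages. In nuclear 25S this line has 3393 bases, the length listed for G. biloba, whereas 3388 are listed for B. rapa. B. rapa is also listed with T at nuclear 18S position 1703, where its line holds a cytosine. In these rRNAs the identities and the cytosine and flank values given for B. rapa may therefore be those of G. biloba.

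**Figure D3:**
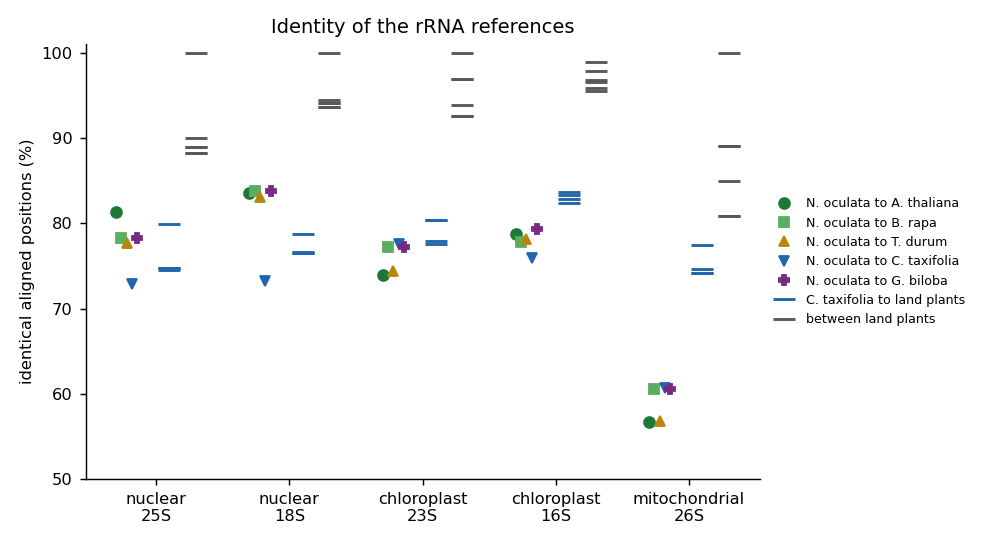
Identical aligned positions (y axis, percent, gaps counted as differences) for 5 rRNAs, from N. oculata to each green species (symbols), from C. taxifolia to each land plant (blue bars) and between land plants (grey bars). The values of 100% come from the B. rapa and G. biloba lines, which are identical in 4 of the rRNAs, and the N. oculata points reach their lowest in mitochondrial 26S, with an average of 59.1%.

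Base composition differed as well. The GC content of the N. oculata references was 50.8% in nuclear 25S, against 54.5% to 58.1% in the green species, and 40% in mitochondrial 26S, against 51.2% to 52.7%. In the other 3 rRNAs it was also below the lowest green value, by a small margin in chloroplast 23S (49.3%, against 49.7% to 55.2%). Fewer cytosines were therefore available, at 15.6% of mitochondrial 26S bases in N. oculata, against 21.4% to 23.6%.

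Conservation of cytosines in general was counted next, without regard to calls. The shared sites hold a cytosine in every species by definition, so they cannot be set against it. Of 2830 Arabidopsis cytosines in the 5 rRNAs, 1919 were cytosine in N. oculata, or 67.8% (Wilson 95% interval 66.1 to 69.5), and 477 were T. The share was 73.8% in nuclear 25S and 45.5% (41.6 to 49.6) in mitochondrial 26S. In C. taxifolia the overall share was 73.3%, and it was 92.5% to 92.8% in the other green species. The order of the algae differed between rRNAs, since chloroplast 23S kept 71.9% in N. oculata, against 66.9% in C. taxifolia, and nuclear 18S kept 76.3%, against 75.3%, with intervals that overlapped in both rRNAs. In mitochondrial 26S the 45.5% of N. oculata, of 593 cytosines, stood against 70.4% in C. taxifolia, of the 459 whose C. taxifolia base is not N. These intervals cover counting error only, since neighbouring bases are not independent. Of the 7 sites called in A. thaliana, 6 had an aligned cytosine in N. oculata. The other was C960 of mitochondrial 18S rRNA, which is not among the 5 rRNAs of the 67.8% and was not aligned. Read the other way, 65.9% of the N. oculata cytosines were cytosine in all 5 green species, and so were 8 of its 9 called sites, C1887 being the exception. A site called in every green species must hold a cytosine there, which fixes the outcome for 6 of these 8 sites. Their share therefore cannot be read against the 65.9% as a sign of conservation.

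At 7 of those 8 called sites, the bases on both sides resembled the green references more than at the median cytosine of the same rRNA. Identity over 10 bases on each side, averaged over the green species, was 100% at C2268, 95% at C2860, 99.0% at C1940 and 98.0% at C1977. The medians over all N. oculata cytosines were 82.0% in nuclear 25S and 81.0% in chloroplast 23S. In mitochondrial 26S the sites were at 86.0% (C1549), 93.0% (C1566) and 84.0% (C1586), against a median of 74.9%. C916 was the exception, with 88.0% at the site and 88.0% over the cytosines of its rRNA, and B. rapa alone was as low as 60.0% there. The mean over the 8 sites was 92.9%. All 8 sites hold a cytosine in every green species, whereas 65.9% of all N. oculata cytosines do. The medians were taken without this condition. C1887, whose window had 22 of 41 bases identical, is not among the 8 sites. A higher identity at the sites may follow from this choice, so it cannot be read as a sign of conservation around called sites. The nuclear references of N. oculata were also guided by Arabidopsis. These values are a description, and no test was made on them.

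**Figure D4:**
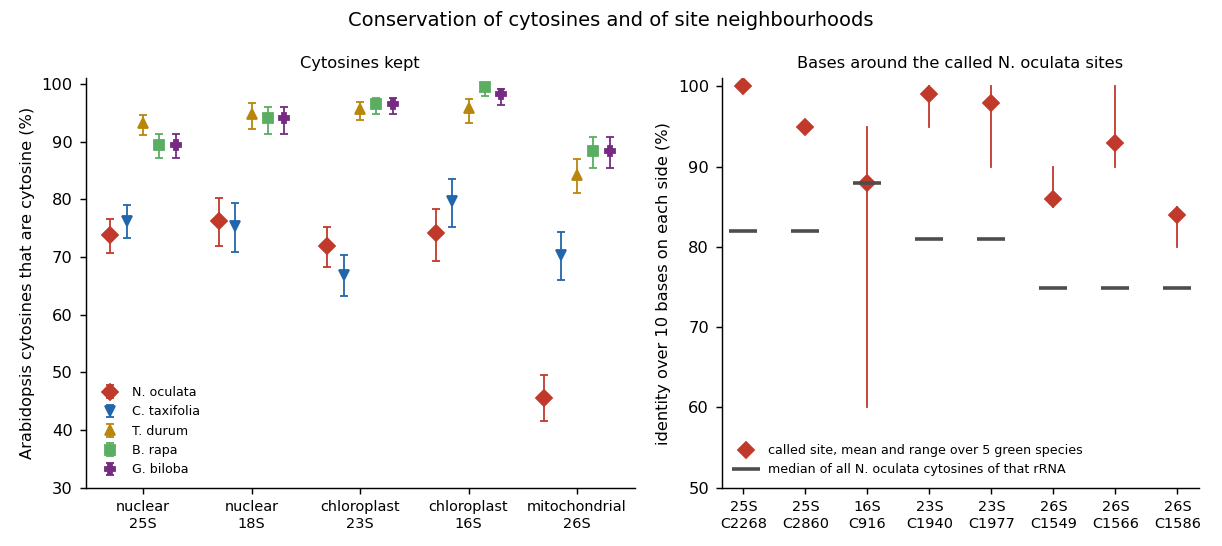
Left, the share of Arabidopsis cytosines that are cytosine in each species (y axis, percent, with Wilson 95% intervals). Right, identity of the 10 bases on each side of the 8 called N. oculata sites with an aligned cytosine (diamond and line, mean and range over the 5 green species) beside the median over all N. oculata cytosines of that rRNA (grey bar). N. oculata is lowest in mitochondrial 26S at 45.5%, and 7 of its 8 sites lie above the grey bar, C916 being level with it.

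The N. oculata chloroplast block had no 4.5S line. In land plant chloroplasts the 4.5S rRNA is a separate RNA that corresponds to the 3′ end of bacterial 23S rRNA. The Arabidopsis 4.5S sequence of 103 bases aligned with positions 2856 to 2947 of the N. oculata 23S reference, 3 bases from its 3′ end, with 79 of 102 aligned columns identical (77.5%). The G. biloba 4.5S sequence aligned from 2855 to 2947 with 78.4% identity. Within the Arabidopsis 23S reference the best local match to its 4.5S rRNA covered 21 bases. C. taxifolia had no 4.5S line either, and the Arabidopsis 4.5S sequence aligned from 2420 to 2508 of its 23S reference, 7 bases from the 3′ end, with 67.7% identity. In both algae the counterpart of the 4.5S rRNA was thus at the end of the 23S reference, and no called site lay in it.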

How the data were processed

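RBS-seq was run on total RNA with 1 library per species and 3 for A. thaliana. The authors trimmed and aligned reads with CLC Genomics Workbench (version not given in the sources used here) to rRNA references in which cytosines had been converted in silico. The deposited unit is percent methylation, the mapped cytosines over mapped cytosines plus thymines, with base letters where a species lacks the cytosine. The A. thaliana column is the authors' mean. The same unit holds for all species, with no further normalization, and incomplete conversion would raise it. The deposited reference table gives sequences and counts of sites.

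Here percentages were used as deposited and called at 20%, the threshold of the study. The members, lists and rules were chosen with earlier results of these data known. All listed sites are named. References were aligned with MAFFT 7.526 (local pairs, 100 iterations). Pairwise alignments used Biopython 1.88 (match 2, mismatch -3, gap opening -5, extension -2, free end gaps), and the 4.5S rRNA its local mode or BLASTN 2.17.0 (word size 7). Identity was counted over the stretch covered by both sequences, with gaps as differences and N left out. Intervals and tests used SciPy 1.17.1. Coordinates are exact matches of 41 bases in TAIR10.1 (RefSeq), whereas the submitters' notes name TAIR10. For N. oculata the mitochondrial SSU reference was left aside. Alignment identity and the permutation test were tested on simulated data. Alternatives covered the call threshold, species or sites left out, and the alignment.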

Additional observations from a re-analysis of the deposited data

Results flagged for a closer look

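At each of the 10 positions with a percentage in N. oculata and in at least 3 green species, the value farthest from its neighbours was compared with the range over species, a rule under which about 1 in 20 groups stands out by chance. Species are not replicates, and C1566, C1713 and C1717 entered the table through a call in 1 species, so a single high value is expected at them. N. oculata stood apart at mitochondrial C1566, at 40%, with a gap of 0.975 of the range. A. thaliana stood apart at chloroplast C1977, at 82%, below the other 5 species. T. durum stood apart at nuclear 18S C1713, at 53%, and C1717, at 52%.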

How the results depend on the processing

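No paired analysis was possible because replicate numbers exist for A. thaliana alone and its libraries were deposited as their mean, which also kept them from being left out in turn. At a threshold of 50% the N. oculata-only sites fell to 1, since C1566 is at 40%, and they were also 1 when C1887, with no aligned cytosine, was left out. The difference in level over shared sites (0.5 points) had no stable sign. It was -2.2 without C916, -0.8 without C2860 and -1.125 without A. thaliana. At C1940 the difference from the green median (-2.0) was 2.0 without B. rapa, 3.0 without T. durum and 3.0 without G. biloba, and at C1586 the green median of chloroplast minus mitochondrial level (-1.0) was 2.5 without T. durum. The identity difference of -12.6 was -10.2 with pairwise alignment, -9.98 with gapped columns left out and -10.8 without B. rapa. The share of Arabidopsis cytosines kept in N. oculata was 70.6% with pairwise alignment, which found no overlap for 1 pair, the mitochondrial 26S of N. oculata and C. taxifolia. Of 79 alternatives, 47 planned and 32 chosen after seeing the data, 51 kept the value within its counting interval, its sign or 1.5 times its count, 21 moved it with the same sign and 7 turned the sign. Depth per site is unknown, so no coverage minimum could be varied.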
